A study of Rattus norvegicus with 49 samples.

Results

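The 7 genes described here, Pgd, Pgls, Rpia, Tkt, Taldo1, H6pd and Idh1, encode enzymes of the pentose phosphate pathway or of NADPH supply beside it, and were measured in the livers of male Sprague-Dawley rats under diet restriction. They were taken by symbol from the array annotation, among the 14217 genes with a probe set of a single symbol, and each gene was read from its brightest such probe set. All 7 were measured on all 49 arrays (Affymetrix GeneChip rat genome arrays, 1 array per rat). The rats were 8 to 10 weeks old at the start. Group 3 received 15% less powdered feed, group 4 received 30% less and group 5 received 60% less, and these 3 groups were fasted overnight before necropsy. Group 2 ate ad libitum before the same overnight fast. Group 1 ate ad libitum and had no fast. The sample labels and the study's methods give the fast in this way, whereas the series' design text has all animals fasted. Each group was sampled after 4 and after 14 days, and the arrays analysed here cover 5 rats per group and day, except for 4 rats of group 1 at day 14. Rats were housed in groups or pairs, and the labels do not say which rats shared a cage, so the spread between rats is taken here as the replicate error.

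The pentose phosphate pathway branches from glycolysis at glucose phosphate. In its oxidative branch, the lactone formed from glucose phosphate is opened by Pgls (phosphogluconolactonase), and Pgd (phosphogluconate dehydrogenase) then oxidises phosphogluconate to ribulose phosphate while reducing NADP+ to NADPH. In the non-oxidative branch, Rpia (ribose phosphate isomerase) makes ribose phosphate for nucleotides, and Tkt (transketolase) and Taldo1 (transaldolase) return carbon to glycolysis by moving short carbon units between sugars. H6pd runs the oxidative steps inside the endoplasmic reticulum, where its NADPH serves steroid reduction, and Idh1 (NADP+-dependent isocitrate dehydrogenase) makes NADPH in the cytosol and peroxisomes. In liver, NADPH is consumed mainly by fatty acid and cholesterol synthesis, by drug metabolism and by the reduction of glutathione and thioredoxin.

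Values are log2 of the deposited intensities. A difference of 1 on this scale is a doubling, and levels are not compared between genes because each probe set binds with its own strength. Median log2 intensity was 6.34 to 6.43 across the 49 arrays, and the median correlation between rats of the same group and day was 0.991 to 0.994. The hepatocyte genes Alb (albumin) and Ttr (transthyretin) averaged log2 intensities of 14.99 and 14.55, at the top of the array. Pgd, Pgls, Tkt, Taldo1, H6pd and Idh1 lay at or above the 83.8th percentile of all probe set means and Rpia at the 69.6th percentile, so none of the 7 was dim. Differences were fitted with limma, p-values were adjusted over all 14217 genes by Benjamini-Hochberg, and calls were made where the adjusted p was under 0.1, the false discovery rate used in the study. Where members with an unadjusted p under 0.05 are given, the share of all genes under that threshold was not counted. The shares of all genes called are at the adjusted threshold and are no measure for them. The probe sets and gene positions (GRCr8) were 1371646_at for Pgd (5:164865830-164882029), 1374523_at for Pgls (16:18334299-18339785), 1376559_at for Rpia (4:104282081-104307732), 1386859_at for Tkt (16:5729381-5755170), 1369940_at for Taldo1 (1:205923196-205933526), 1376837_at for H6pd (5:165717456-165753158) and 1369954_at for Idh1 (9:74027887-74057442). Livers were measured in bulk, so fewer cells of a type and less RNA per cell cannot be told apart.

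The question behind groups 2 and 1 was what an overnight fast alone does in ad libitum fed rats. Pgd, Tkt and Taldo1 fell on both days, Pgls fell at day 4 and Idh1 fell at day 14. Rpia and H6pd were not called on either day. At day 14, 4 of the 7 genes fell and none rose, where 7.26% of all genes were called lower and 5.92% higher. At day 4, 4 of the 7 fell and none rose, where 9.76% of all genes were called lower and 11.5% higher. The median log2 difference of the 7 genes was -0.20 at day 14 and -0.41 at day 4, beside -0.013 and -0.0030 for the medians of all genes. Groups 2 and 1 did not overlap for 12% of all genes at day 14 and 13% at day 4, in either direction.

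Pgd, the NADPH-producing dehydrogenase, moved most. At day 14 its log2 intensities were 9.19, 9.0, 8.94, 8.84 and 9.13 in group 2, against 10.55, 10.03, 10.25 and 10.25 in group 1. At day 4 they were 8.81, 8.89, 8.87, 8.76 and 8.83 in group 2, against 10.41, 10.24, 10.34, 10.40 and 10.33 in group 1. No fasted rat came near an unfasted rat of its day. The log2 difference was -1.25 (SE 0.11, adjusted p = 8.27e-05, limma) at day 14 and -1.51 (SE 0.053, adjusted p = 6.95e-08) at day 4, a 2.38-fold and a 2.85-fold lower level in the fasted rats. At day 4 this was the smallest p-value among the 14217 genes.

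Tkt, the transketolase of the non-oxidative branch, had log2 intensities of 10.35, 10.12, 10.37, 10.22 and 10.40 in group 2 at day 14, against 11.56, 11.19, 11.38 and 11.42 in group 1. At day 4 the values were 10.28, 10.14, 10.10, 10.12 and 10.30 in group 2, against 11.50, 11.37, 11.39, 11.29 and 11.34 in group 1. The groups did not overlap on either day, and the log2 difference was -1.10 (SE 0.088, adjusted p = 6.12e-05) at day 14 and -1.19 (SE 0.063, adjusted p = 5.85e-07) at day 4.

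Taldo1, its partner transaldolase, fell by a smaller amount with a small spread. It had 10.83, 10.76, 10.85, 10.90 and 10.86 in group 2 at day 14, against 11.33, 11.13, 11.25 and 11.26 in group 1, and 10.81, 10.69, 10.78, 10.64 and 10.72 in group 2 at day 4, against 11.29, 11.19, 11.34, 11.15 and 11.30 in group 1. The log2 differences were -0.40 (SE 0.062, adjusted p = 0.00296) and -0.53 (SE 0.058, adjusted p = 0.000145) for day 14 and day 4, again without overlap.

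Pgls, the lactonase upstream of Pgd, had log2 intensities of 9.29, 9.51, 9.32, 9.40 and 9.53 in group 2 at day 4, against 9.88, 9.82, 9.85, 9.91 and 9.64 in group 1. These did not overlap, with a log2 difference of -0.41 (SE 0.071, adjusted p = 0.00267). At day 14 Pgls had 9.48, 9.57, 9.55, 9.47 and 9.52 in group 2, against 9.82, 9.50, 9.94 and 9.61 in group 1. Rat 2 of group 1 lay inside the range of the fasted rats, and the log2 difference of -0.20 was not called (95% interval -0.40 to -0.00069, adjusted p = 0.217). Without that rat it was -0.27 and called (adjusted p = 0.0906).

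Idh1, the cytosolic isocitrate dehydrogenase, was called only at day 14, where it had 12.98, 12.96, 13.01, 13.03 and 13.03 in group 2, against 13.15, 13.15, 13.24 and 13.28 in group 1. All fasted rats were lower, by a log2 difference of -0.20 (SE 0.058, adjusted p = 0.0621). The call was lost without rat 3 or rat 4 of group 1 or without rat 1 or rat 2 of group 2 (adjusted p 0.106 to 0.158), and with the mean of both Idh1 probe sets, of which the second is dim (log2 difference -0.11, adjusted p = 0.318). At day 4 the log2 difference of Idh1 was -0.026 (95% interval -0.15 to 0.10, adjusted p = 0.821).

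Rpia had 8.23, 8.39, 8.12, 8.15 and 8.25 in group 2 at day 4, against 8.34, 8.43, 8.43, 8.44 and 8.25 in group 1, with overlap and a log2 difference of -0.15 (adjusted p = 0.169). It was called without rat 2 of group 2 (-0.19, adjusted p = 0.0781). At day 14 the difference for this isomerase was -0.062 (adjusted p = 0.733). H6pd was the only 1 of the 7 with positive differences for the fast, 0.092 (adjusted p = 0.650) at day 14 and 0.22 (95% interval -0.056 to 0.50, adjusted p = 0.286) at day 4. Neither was called.

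**Figure D1:**
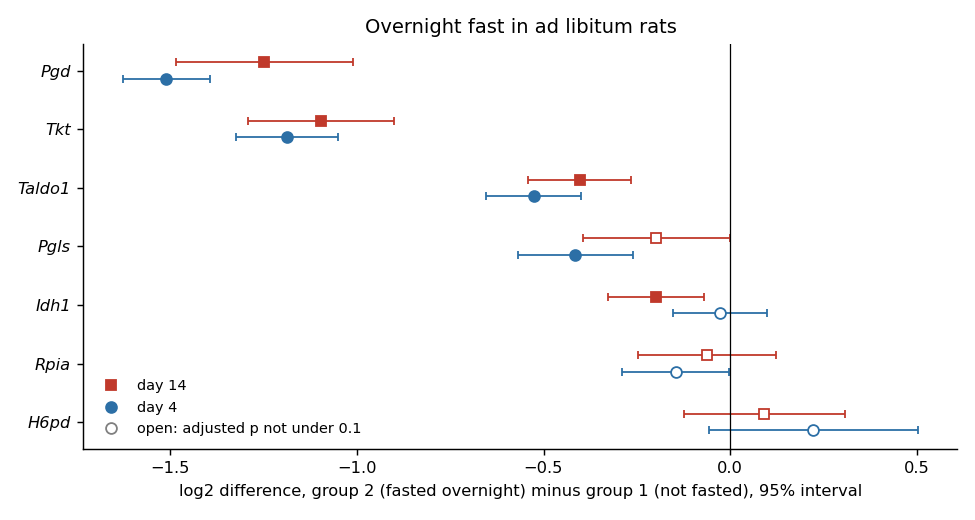
Log2 difference of group 2 (ad libitum, fasted overnight) minus group 1 (ad libitum, not fasted) for the 7 genes, with 95% intervals from limma; squares are day 14, circles are day 4, and open symbols were not called at an adjusted p under 0.1. Pgd (-1.25 and -1.51) and Tkt (-1.10 and -1.19) lie farthest left, Taldo1 and Pgls follow, and H6pd lies right of 0.

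None of the 7 genes was called in a test of whether the effect of the fast differed between the days, and 0% of all genes were. Pgd and Idh1 had an unadjusted p under 0.05 there. The largest changes of the effect were 0.26 for Pgd (adjusted p = 0.774), 0.22 for Pgls (adjusted p = 0.817) and -0.17 for Idh1 (adjusted p = 0.737), so a difference between the days was not shown for the genes called on 1 day only. Beside these results, 4 of the 7 stellate cell and fibroblast markers fell with the fast on each day. Their mean log2 level ranged over 7.75 to 8.27 in group 2 and 8.51 to 8.72 in group 1 at day 14, and over 7.61 to 8.15 in group 2 and 8.34 to 8.60 in group 1 at day 4. Their part in the results was not tested. Of the 8 hepatocyte markers, 1 rose at day 14 and 2 rose at day 4, and the median log2 difference of that list was 0.032 and -0.012.

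Pgd, Tkt and Taldo1 were the members that moved together, so the sequence around their transcription starts is shown (RefSeq, GRCr8, 250 bases before to 50 bases after the start, in transcript direction). Capitals mark matches to any of 5 motifs searched on both strands, the E-box CACGTG, the CCAAT box, the GC box GGGCGG, the antioxidant response element core TGACNNNGC and a sterol response element TCACNCCAC, and none of the matches printed overlap.
Pgd, chr5:164881980-164882279, minus strand: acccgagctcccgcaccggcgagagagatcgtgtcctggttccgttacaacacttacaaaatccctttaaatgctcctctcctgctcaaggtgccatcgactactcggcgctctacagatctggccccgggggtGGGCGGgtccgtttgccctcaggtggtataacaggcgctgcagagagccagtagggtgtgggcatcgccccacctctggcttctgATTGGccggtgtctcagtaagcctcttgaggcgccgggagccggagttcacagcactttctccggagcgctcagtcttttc
Taldo1, chr1:205922946-205923245, plus strand: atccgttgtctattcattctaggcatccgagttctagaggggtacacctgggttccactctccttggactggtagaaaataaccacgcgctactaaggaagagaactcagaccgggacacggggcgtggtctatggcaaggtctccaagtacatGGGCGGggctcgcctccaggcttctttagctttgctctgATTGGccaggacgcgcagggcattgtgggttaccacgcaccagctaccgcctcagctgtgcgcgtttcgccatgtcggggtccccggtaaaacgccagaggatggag
Tkt, chr16:5729982-5730281, plus strand: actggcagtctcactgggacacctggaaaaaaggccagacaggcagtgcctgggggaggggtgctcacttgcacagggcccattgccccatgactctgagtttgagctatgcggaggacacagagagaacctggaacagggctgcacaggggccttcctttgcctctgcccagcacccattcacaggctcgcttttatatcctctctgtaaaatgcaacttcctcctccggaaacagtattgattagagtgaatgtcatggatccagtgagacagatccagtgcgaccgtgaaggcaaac
Pgd and Taldo1 each held 1 inverted CCAAT box (ATTGG, at -31 and at -57 from the start) and 1 GC box (at -116 and at -96), whereas the Tkt window held none of the 5 motifs. This Tkt window lies inside the annotated gene span (16:5729381-5755170), which begins upstream of it. Of the 27457 promoter windows of the same length, 37.7% held a CCAAT box, 34.9% a GC box, 6.65% the E-box, 12.2% the antioxidant response element core and 1.13% the sterol response element. Among the other members, Rpia held 1 GC box at -2, H6pd held no motif, and Idh1 held 2 GC boxes and an antioxidant response element core (TGACCCTGC at -83). The Idh1 window (9:74049425-74049724, minus strand) likewise lies inside its annotated gene span (9:74027887-74057442) and not at that span's outer end. The Pgls promoter was not analysed here. These matches describe letters in a window and say nothing about binding.

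The restricted groups were compared with group 2 of the same day, which also fasted overnight, to ask what less food does beyond the fast. The 3 comparisons of a day share the same group 2 rats and are not independent. Of 42 tests over the 7 genes, 8 were called higher and 1 lower, and 11 had an unadjusted p under 0.05. At day 14, Tkt rose in all 3 restricted groups, Pgd and Taldo1 rose with 30% less food, and with 60% less food H6pd rose while Idh1 fell. At day 4, Pgd and Tkt rose with 60% less food. Pgls and Rpia were called in none of these comparisons.

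Less food for 4 days changed few members. In group 3 (15% less food) 0 of the 7 genes were called, where 0.253% of all genes were, and 0 had an unadjusted p under 0.05. In group 4 (30% less food) 0 were called, where 5.43% of all genes were, and Pgd had an unadjusted p under 0.05. In group 5 (60% less food) 2 were called higher and none lower, where 3.56% of all genes were higher and 3.58% lower. The median log2 difference of the 7 genes was 0.0047, 0.062 and 0.15 in groups 3, 4 and 5, beside -0.0018, -0.00074 and 0.0091 for all genes.

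Pgd at day 4 had log2 intensities of 8.81, 8.89, 8.87, 8.76 and 8.83 in group 2, 8.97, 8.92, 8.69, 9.06 and 8.86 in group 3, 8.93, 9.08, 9.25, 8.95 and 9.08 in group 4, and 9.13, 9.54, 9.08, 9.36 and 8.95 in group 5. Every rat of groups 4 and 5 was above every rat of group 2. Over all genes, 4.87% did not overlap between groups 4 and 2 and 5.9% between groups 5 and 2 at day 4, in either direction. For group 5 the log2 difference from group 2 was 0.38 (SE 0.10, adjusted p = 0.0589, 1.30-fold). That call was lost without rat 1, 4 or 5 of group 2 or rat 4 of group 5 (adjusted p 0.105 to 0.142). For group 4 it was 0.23 (SE 0.068, adjusted p = 0.107), which was not called, though without rat 1 of group 4 it was 0.26 and called (adjusted p = 0.0764).

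Tkt at day 4 had 10.28, 10.14, 10.10, 10.12 and 10.30 in group 2, 10.19, 10.31, 10.18, 10.35 and 10.14 in group 3, 10.49, 10.38, 10.82, 10.11 and 10.32 in group 4, and 10.64, 10.82, 10.30, 10.48 and 10.44 in group 5. The lowest rat of group 5 met the top of group 2. The log2 difference of group 5 from group 2 was 0.35 (SE 0.093, adjusted p = 0.0624, 1.27-fold), a call that was lost without rat 2, 3 or 4 of group 2 or rat 1, 2 or 4 of group 5 (adjusted p 0.102 to 0.148). In group 4 it was 0.24 (95% interval -0.011 to 0.48, adjusted p = 0.329). Beside the group 5 results, 1 of 7 stellate and 0 of 4 erythroid markers were called lower, with a mean log2 stellate level of 6.98 to 7.97 in group 5 and 7.61 to 8.15 in group 2. Their part was not tested.

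After 14 days more members were called. Group 3 had 1 of 7 higher and 0 lower, where 3.4% of all genes were higher and 3.14% lower. Group 4 had 3 of 7 higher and 0 lower, where 6.52% were higher and 6.24% lower. Group 5 had 2 of 7 higher and 1 lower, where 8.88% were higher and 10.9% lower. The median log2 difference of the 7 genes was 0.050, 0.089 and 0.10 in groups 3, 4 and 5, beside 0.0038, 0.0035 and 0.0033 for all genes. Values did not overlap with group 2 for 5.73%, 8.68% and 12.3% of all genes in groups 3, 4 and 5, in either direction.

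Tkt was the only member called in all 3 restricted groups at day 14. Its log2 intensities were 10.35, 10.12, 10.37, 10.22 and 10.40 in group 2, 10.75, 10.57, 10.35, 10.75 and 10.99 in group 3, 10.74, 10.90, 11.03, 11.13 and 11.07 in group 4, and 10.86, 10.76, 10.86, 10.73 and 10.68 in group 5. All rats of groups 4 and 5 were above group 2, and in group 3 only rat 3 lay within the range of group 2. The log2 differences from group 2 were 0.39 in group 3 (SE 0.11, adjusted p = 0.0664, 1.31-fold), 0.68 in group 4 (SE 0.086, adjusted p = 0.000634, 1.61-fold) and 0.49 in group 5 (SE 0.074, adjusted p = 0.00106, 1.40-fold). The call in group 3 was lost without rat 1, 4 or 5 of group 3 or rat 1, 2 or 4 of group 2 (adjusted p 0.107 to 0.150), whereas those in groups 4 and 5 were kept without any single rat. All rats of group 4 lay below the unfasted group 1, whose Tkt values at day 14 were 11.19 to 11.56.

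Pgd at day 14 had 9.19, 9.0, 8.94, 8.84 and 9.13 in group 2, 9.38, 9.19, 9.11, 9.19 and 9.47 in group 3, 9.21, 9.72, 9.77, 9.59 and 9.91 in group 4, and 9.29, 9.18, 9.04, 9.15 and 9.18 in group 5. Group 4 was highest, with rat 1 just above the top of group 2 and the other 4 rats clear of it. Its log2 difference from group 2 was 0.62 (SE 0.12, adjusted p = 0.00844, 1.54-fold), and the call was kept without any single rat. The differences of group 3 (0.25, 95% interval 0.053 to 0.44, adjusted p = 0.169) and group 5 (0.15, 95% interval -0.027 to 0.32, adjusted p = 0.272) were not called.

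Taldo1 at day 14 had 10.83, 10.76, 10.85, 10.90 and 10.86 in group 2, 10.88, 10.77, 10.91, 10.92 and 10.95 in group 3, 10.91, 11.09, 10.97, 11.05 and 11.10 in group 4, and 10.79, 10.89, 10.90, 10.78 and 10.70 in group 5. Group 4 lay wholly above group 2 by a narrow gap, and group 5 straddled group 2. The log2 difference of group 4 was 0.19 (SE 0.060, adjusted p = 0.0776, 1.14-fold). That call was lost without rat 2, 4 or 5 of group 4 or rat 1, 2, 3 or 5 of group 2 (adjusted p 0.112 to 0.158).

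Idh1 and H6pd, the NADPH enzymes outside the pathway's cytosolic branch, were called in group 5 at day 14 and in no other restricted group. Idh1 had 12.98, 12.96, 13.01, 13.03 and 13.03 in group 2, 13.11, 13.01, 13.00, 13.15 and 13.01 in group 3, 12.69, 13.16, 13.16, 12.91 and 13.16 in group 4, and 12.53, 12.68, 12.91, 12.70 and 12.41 in group 5. All 5 rats of group 5 were below all rats of group 2, and in group 4 rats 1 and 4 lay within the range of group 5 and below group 2 while the other 3 rats lay above group 2. The log2 difference of group 5 was -0.36 (SE 0.087, adjusted p = 0.0175, 1.28-fold lower), and the call was kept without any single rat.

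H6pd at day 14 had 11.45, 11.32, 11.20, 11.18 and 11.72 in group 5, against 11.04, 11.06, 11.02, 10.87 and 11.33 in group 2. Rat 5 of group 2 lay within the range of group 5. The log2 difference was 0.31 (SE 0.11, adjusted p = 0.0933, 1.24-fold), and the call was lost without rat 1, 2 or 5 of group 5 or rat 1, 2, 3 or 4 of group 2 (adjusted p 0.128 to 0.191). In group 5 at day 4 the difference was 0.17 (95% interval -0.095 to 0.43, adjusted p = 0.520). Rat 5 of group 5 at day 14 had both the highest H6pd value of all 49 rats and the lowest Idh1 value, 12.41.

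Markers of other cells moved in the restricted groups at day 14. In group 3, where Tkt rose, 1 of 7 stellate markers rose (Lrat, log2 difference 0.76, adjusted p = 0.0204) and 1 fell (Pdgfrb, -0.59, adjusted p = 0.00704), with a mean log2 level of that list of 7.86 to 8.08 in group 3 and 7.75 to 8.27 in group 2, and no marker of the other lists was called. The erythroid genes Hbb and Alas2 fell in groups 4 and 5, with 2 of 4 markers called, and the mean log2 level of the erythroid list was 7.57 to 8.56 in group 4 and 7.10 to 7.71 in group 5, against 8.20 to 8.80 in group 2. Of 7 stellate markers, 2 rose and 2 fell in group 4 and 2 fell in group 5, with mean levels of 7.60 to 8.16 in group 4 and 6.94 to 7.5 in group 5, against 7.75 to 8.27 in group 2. Of 8 T and NK cell markers, 2 fell in group 5. Their part in the changes of Pgd, Tkt, Taldo1, H6pd and Idh1 was not tested. Of 8 hepatocyte markers 1 rose and 1 fell in group 4, and 2 rose and 2 fell in group 5, with list medians of 0.023 and -0.010. Of the remaining lists against group 2, none of 5 Kupffer cell markers was called in any comparison, 1 of 3 neutrophil markers fell in groups 4 and 5 at day 14, 1 of 4 endothelial markers rose in group 5 at day 14, and 1 of 4 cholangiocyte markers rose in groups 4 and 5 at day 14.

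Pgls and Rpia did not pass the test in any restricted group. For Pgls the log2 differences from group 2 were -0.0076 to 0.15 over the 6 comparisons, with adjusted p-values of 0.281 to 0.973, and for Rpia they were -0.025 to 0.10, with adjusted p-values of 0.532 to 0.995. The 95% intervals reached from -0.19 to 0.30 for Pgls and from -0.17 to 0.30 for Rpia, so changes within these bounds could not be told from 0. Rpia values lay between 7.93 and 8.44 in all 49 rats on the probe set used, and between 7.28 and 8.42 on the second Rpia probe set.

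**Figure D2:**
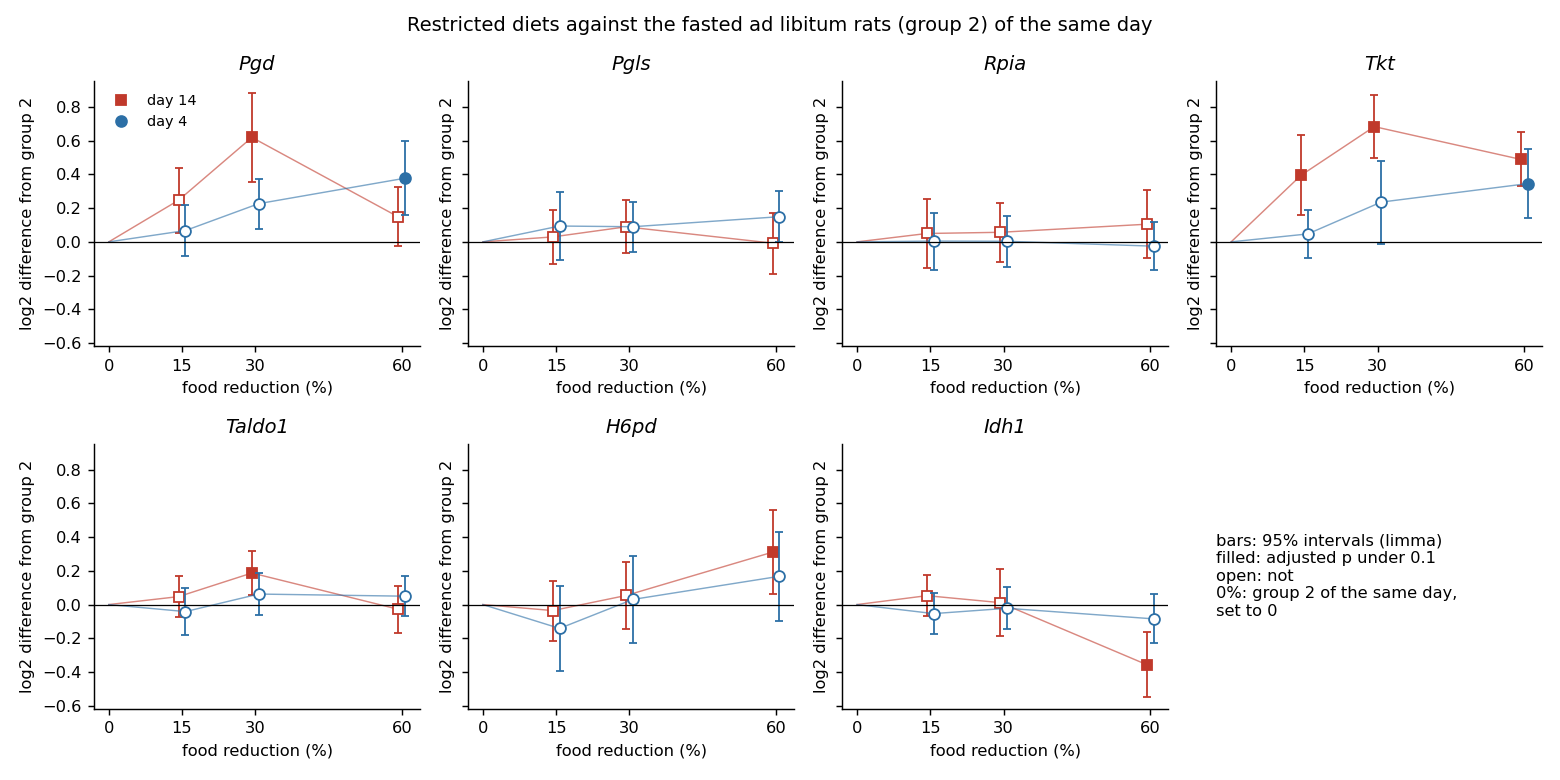
Log2 difference from group 2 of the same day against the food reduction in percent for each of the 7 genes, with 95% intervals from limma; red squares are day 14, blue circles are day 4, and filled symbols were called at an adjusted p under 0.1. Pgd and Tkt peak at 30% less food on day 14 (0.62 and 0.68) and are highest at 60% on day 4 (0.38 and 0.35), and at 60% on day 14 H6pd lies above 0 (0.31) and Idh1 below it (-0.36).

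A linear slope over food reductions of 0, 15, 30 and 60%, using the 20 fasted rats of a day, gave another view of dose. At day 4, 2 of 7 genes were called with a positive slope and none with a negative one. Of all 14217 genes, 4.8% were called with a positive slope, and 1254 were called in either direction. Pgd gained 0.065 in log2 per 10 percentage points of food reduction (adjusted p = 0.0090) and Tkt gained 0.061 (adjusted p = 0.0323). At day 14, 2 of 7 were called with a positive and 1 with a negative slope. Of all genes, 10.8% were called with a positive and 13.2% with a negative slope. Tkt gained 0.074 (adjusted p = 0.0301), H6pd gained 0.056 (adjusted p = 0.0134) and Idh1 had a slope of -0.064 (adjusted p = 0.00764). The day 14 slope of Pgd was 0.023 (adjusted p = 0.640), and its group means did not follow the dose, since group 4 was above group 5. Tkt likewise did not follow the dose at day 14, with means of 10.29, 10.68, 10.97 and 10.78 in groups 2, 3, 4 and 5. In the same order, Idh1 had means of 13.00, 13.06, 13.02 and 12.65, and H6pd had 11.06, 11.03, 11.12 and 11.37. Their largest step was from group 4 to group 5. The H6pd slope at day 4 was called only without rat 2 of group 2 (0.053, adjusted p = 0.0334).

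Direct comparisons between the restricted diets set H6pd and Idh1 apart at day 14. Over 42 tests, 1 was called higher and 1 lower, and 13 had an unadjusted p under 0.05. Group 5 against group 3 at day 14 called H6pd higher and Idh1 lower, where 3.76% of all genes were higher and 5.79% lower. Groups 5 and 3 did not overlap for 7.12% of all genes, in either direction. H6pd had 11.45, 11.32, 11.20, 11.18 and 11.72 in group 5, against 11.02, 11.05, 11.02, 10.93 and 11.12 in group 3, a log2 difference of 0.35 without overlap (SE 0.098, adjusted p = 0.0649). Idh1 had 12.53, 12.68, 12.91, 12.70 and 12.41 in group 5, against 13.11, 13.01, 13.00, 13.15 and 13.01 in group 3, a log2 difference of -0.41 without overlap (SE 0.089, adjusted p = 0.0249). The H6pd call was lost without rat 1 of group 5 or any rat of group 3 (adjusted p 0.10 to 0.135). Beside these results, 2 of 4 erythroid, 3 of 7 stellate and 2 of 3 neutrophil markers were lower in group 5, with mean log2 levels of 7.10 to 7.71 in group 5 and 8.20 to 8.48 in group 3 for the erythroid list and 6.94 to 7.5 in group 5 and 7.86 to 8.08 in group 3 for the stellate list. Of 8 hepatocyte markers, 1 was higher and 1 lower. Their part was not tested.

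For group 5 against group 4 at day 14, 0 of 7 genes were called, where 0.366% of all genes were, though 5 of the 7 had an unadjusted p under 0.05. The log2 difference was -0.47 for Pgd (95% interval -0.72 to -0.22, adjusted p = 0.145), -0.37 for Idh1 (95% interval -0.62 to -0.12, adjusted p = 0.216) and -0.22 for Taldo1 (adjusted p = 0.202), whose 5 values in group 5 all lay below group 4. Groups 5 and 4 did not overlap for 2.85% of all genes, in either direction. Without rat 1 of group 4 the Pgd difference was -0.58 and called (adjusted p = 0.0303), and in a single fit of all 10 group and day means Pgd (adjusted p = 0.00586), Taldo1 (adjusted p = 0.0140) and Idh1 (adjusted p = 0.00197) were called. None of the 7 was called for group 4 against group 3 at day 14, where 0.0492% of all genes were and 3 of the 7 had an unadjusted p under 0.05. At day 4 the counts were 0 of 7 for group 5 against group 4 (0.0141% of all genes, 0 of the 7 at an unadjusted p under 0.05), for group 5 against group 3 (0.83%, 3 of the 7) and for group 4 against group 3 (0.0211%, 0 of the 7). H6pd was called for group 5 against group 3 at day 4 only without rat 1 of group 5 (0.37, adjusted p = 0.0828).

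The days were compared within each group to see what 14 days on a diet changed over 4 days, and as no other label could mark a batch, batch and duration cannot be told apart. In the ad libitum groups none of the 7 genes was called, in group 1 (0% of all genes called, Rpia at an unadjusted p under 0.05) or in group 2 (0.00703% called, Pgd at an unadjusted p under 0.05). In group 3, 3 of 7 rose, where 8.93% of all genes were called higher. In group 4, 3 of 7 rose, where 3.64% were called higher. In group 5, 1 of 7 fell, where 2.81% were called lower. The days did not overlap for 8.01% of all genes in group 3 and 4.63% in group 4, in either direction.

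Pgd, Tkt and Taldo1 were the genes called higher at day 14 than at day 4 in groups 3 and 4. In group 2, which had no restriction, their means were also higher at day 14, though not called. These means at day 14 and day 4 were 9.02 and 8.83 for Pgd, 10.29 and 10.19 for Tkt, and 10.84 and 10.73 for Taldo1. In group 4 the log2 difference of day 14 minus day 4 was 0.58 for Pgd (SE 0.12, adjusted p = 0.0274), 0.55 for Tkt (SE 0.12, adjusted p = 0.0371) and 0.24 for Taldo1 (SE 0.061, adjusted p = 0.0656). Taldo1 had 10.91, 11.09, 10.97, 11.05 and 11.10 at day 14, against 10.71, 10.89, 10.82, 10.74 and 10.78 at day 4, without overlap, while the days overlapped for Pgd and Tkt. In group 3 the log2 difference was 0.37 for Pgd (SE 0.087, adjusted p = 0.0301), 0.45 for Tkt (SE 0.10, adjusted p = 0.0287) and 0.20 for Taldo1 (SE 0.064, adjusted p = 0.0840). All 5 Pgd values of group 3 at day 14, 9.11 to 9.47, lay above those at day 4, 8.69 to 9.06. The Taldo1 calls were lost without rat 1, 3, 4 or 5 of either day in group 3 (adjusted p 0.105 to 0.160) and without rat 2, 4 or 5 of day 14 or rat 1, 4 or 5 of day 4 in group 4 (adjusted p 0.107 to 0.155). After a further quantile normalization the Taldo1 differences were 0.13 in group 3 (adjusted p = 0.258) and 0.19 in group 4 (adjusted p = 0.110).

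Cell markers moved in the same comparisons. In group 4, Hbb (-1.04) and Alas2 (-1.09) of 4 erythroid markers, Lox (-1.95) of 7 stellate markers, 1 of 3 neutrophil markers and Apoa1 (-0.62) of 8 hepatocyte markers fell and none rose. The mean log2 erythroid level was 7.57 to 8.56 at day 14 and 8.23 to 8.83 at day 4, and the stellate level was 7.60 to 8.16 at day 14 and 7.43 to 8.40 at day 4. In group 3, Lrat (0.70) rose and Pdgfrb (-0.41) fell of the stellate markers, Clec4f (0.38) of 5 Kupffer cell markers rose, and 1 of 4 erythroid and 1 of 8 hepatocyte markers fell, with a mean stellate level of 7.86 to 8.08 at day 14 and 7.16 to 8.22 at day 4. Their part in the changes of Pgd, Tkt and Taldo1 was not tested.

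Idh1 was the gene that fell with time in group 5. It had 12.53, 12.68, 12.91, 12.70 and 12.41 at day 14, against 13.09, 13.13, 13.00, 12.88 and 12.97 at day 4, and only rat 3 of day 14 reached the day 4 range. The log2 difference was -0.37 (SE 0.093, adjusted p = 0.0547), a call lost without rat 1 or 5 of day 14 or rat 1, 2 or 3 of day 4 (adjusted p 0.102 to 0.131) and with the mean of both probe sets (-0.21, adjusted p = 0.247). In the same comparison Hbb (-1.92) and Alas2 (-1.50) of the erythroid markers, Lox (-2.23) and Col1a1 (-0.36) of the stellate markers, 1 of 3 neutrophil markers and the hepatocyte markers Apoa1 (-0.62) and Fabp1 (-0.35) fell, while the hepatocyte marker Tat (0.56) rose. The mean log2 erythroid level was 7.10 to 7.71 at day 14 and 8.11 to 8.61 at day 4, and the stellate level was 6.94 to 7.5 at day 14 and 6.98 to 7.97 at day 4. Their part in the fall of Idh1 was not tested. Tkt in group 5 differed by 0.25 (adjusted p = 0.173), and by 0.32 without rat 2 of day 4 (adjusted p = 0.0732).

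A difference from group 2 at day 14 and not at day 4 was also tested directly, as an interaction of diet and day. None of the 7 genes was called, in group 3 (0.591% of all genes called, Tkt at an unadjusted p under 0.05), in group 4 (0.134%, Pgd and Tkt) or in group 5 (2.04%, Idh1). The estimated change of the difference was 0.35 for Tkt in group 3 (adjusted p = 0.328), 0.45 for Tkt in group 4 (adjusted p = 0.272), 0.39 for Pgd in group 4 (adjusted p = 0.341) and -0.27 for Idh1 in group 5 (adjusted p = 0.273). Leaving out a single rat brought 3 of them past the threshold, namely Tkt in group 3 without its rat 3 of day 14 (0.43, adjusted p = 0.0839), Tkt in group 4 without its rat 3 of day 4 (0.55, adjusted p = 0.0725) and Idh1 in group 5 without its rat 3 of day 14 (-0.34, adjusted p = 0.0911).

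Across the 10 groups and days, the group means spanned 1.51 in log2 for Pgd, 1.20 for Tkt, 0.57 for Taldo1, 0.55 for Idh1, 0.54 for H6pd, 0.41 for Pgls and 0.23 for Rpia, beside a median SD between rats of 0.067 to 0.16. For Pgd, Tkt and Taldo1 both unfasted groups came first and group 4 at day 14 came next, and the last place went to group 2 at day 4 for Pgd and Tkt and to group 3 at day 4 for Taldo1. Pgd averaged 9.64 ± 0.27 in group 4 at day 14 (SD, n = 5), 8.83 ± 0.054 in group 2 at day 4 (n = 5), and in group 1 10.27 ± 0.21 at day 14 (n = 4) and 10.34 ± 0.065 at day 4 (n = 5). Among the 9 pairs of neighbours in each gene's order, the ranges of a pair failed to overlap once each for Pgd, Tkt and Taldo1, between an unfasted group and group 4 at day 14, and once for Idh1, between group 2 at day 14 and group 5 at day 14. For H6pd, Pgls and Rpia all neighbours overlapped. Groups 2 and 5 at day 14 did not overlap for 12.3% of all genes, and that share was not counted for an unfasted group against group 4. H6pd had another order, with group 5 at day 14 first at 11.37 ± 0.22, group 5 at day 4 next at 11.22 ± 0.16, and group 1 at day 4 last at 10.83 ± 0.20 (SD, n = 5 each).

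**Figure D3:**
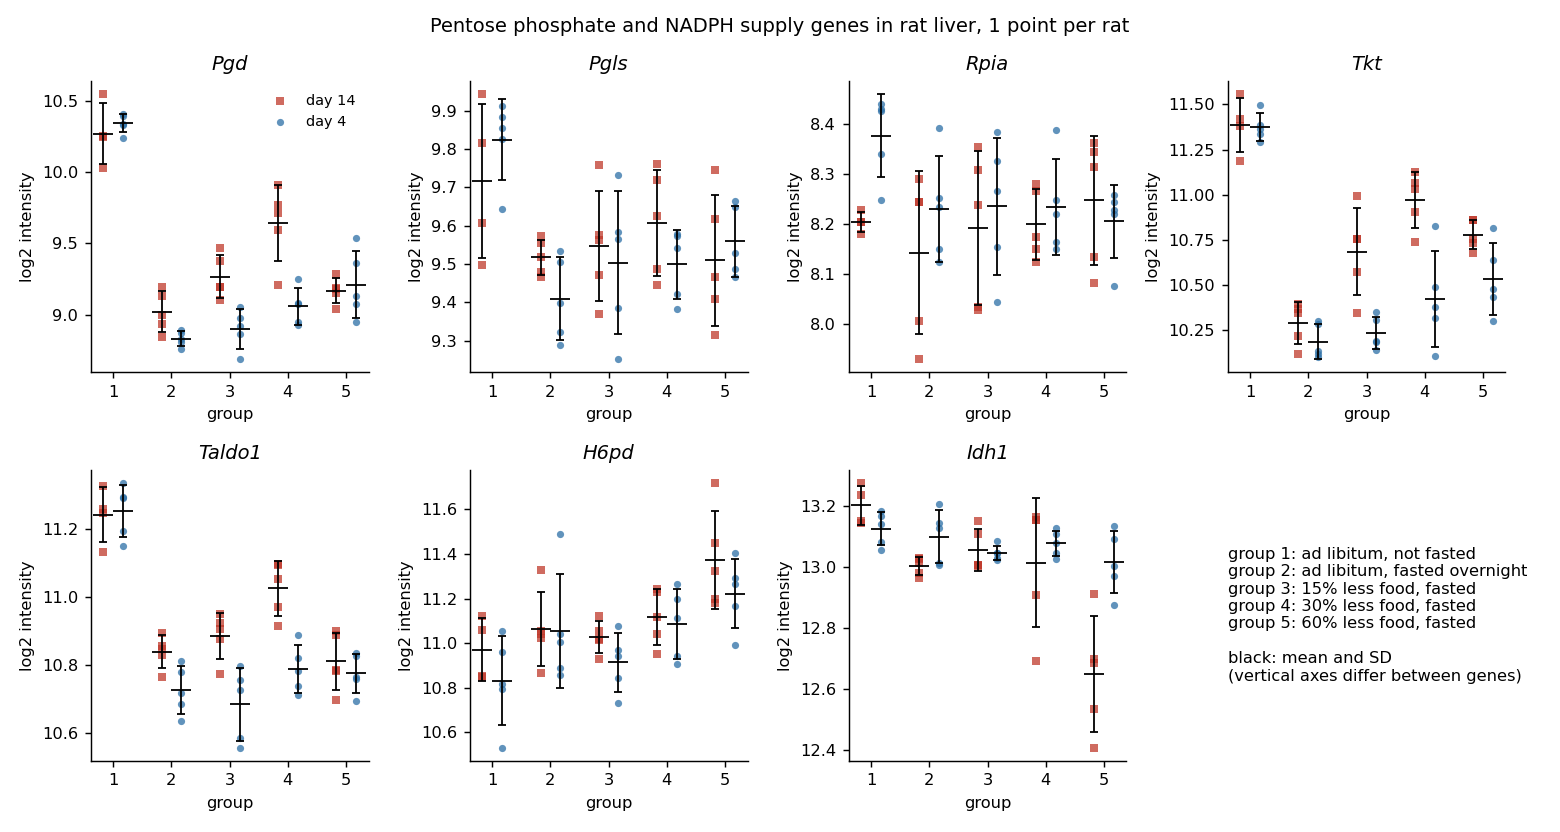
Log2 intensity of the 7 genes in each of the 49 rats by group (1 ad libitum and not fasted, 2 ad libitum and fasted, 3 to 5 with 15, 30 and 60% less food and fasted), with the mean and SD in black; red squares are day 14 and blue circles are day 4, and the vertical axes differ between genes. Group 1 stands above all fasted groups for Pgd, Tkt and Taldo1, group 4 at day 14 comes next, and group 5 at day 14 is lowest for Idh1.

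The members' likeness to each other and to other genes was described by Pearson's r of log2 intensity over the 49 arrays. The points share groups and days, so r after subtracting each group and day mean and r over the 40 arrays of groups 2 to 5 are given too. Pgd and Tkt had r = 0.935 (0.629 within group and day, 0.844 over the fasted groups), Pgd and Taldo1 had 0.929 (0.442 and 0.761), and H6pd and Idh1 had -0.621 (-0.398 within group and day). H6pd had r of -0.258 with Pgd and -0.182 with Tkt over the 49 arrays, and 0.256 and 0.255 over the fasted groups. Pgls was less alike to Pgd (0.639, 0.019 within group and day), and Rpia had r of at most 0.254 with any other member. Some rats were the lowest or highest of their group in several members. At day 14, rat 1 of group 4 was the lowest in Pgd, Tkt, Taldo1 and Idh1. Rat 2 of group 1 was the lowest in Pgd, Pgls, Tkt and Taldo1, and rat 5 of group 5 in Pgls, Tkt, Taldo1 and Idh1. Rat 5 of group 3 was the highest in Pgd, Tkt, Taldo1 and H6pd. With so few rats per group such cases also arise by chance, and their expected number was not tested. They therefore do not show that members deviated together within a rat.

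Of all other genes, Fasn (fatty acid synthase, which consumes NADPH) and Acly (ATP citrate lyase, which supplies its acetyl-CoA) were most like Pgd, with r = 0.968 and 0.958 (0.762 and 0.688 within group and day, 0.921 and 0.891 over the fasted groups), followed by Tmem254 (0.936). The same pair led for Tkt, with 0.946 for Fasn and 0.944 for Acly, followed by Pmvk of the mevalonate pathway (0.938). Fasn averaged 9.71 ± 0.60 in group 4 and 8.96 ± 0.17 in group 5 at day 14, against 8.21 ± 0.19 in group 2 (SD, n = 5 each). Taldo1 was most like Pgd, then Tmem254 (0.895) and Pebp1 (0.889). H6pd was most like Pnpla2 (adipose triglyceride lipase, 0.775, 0.682 within group and day), Slc49a4 (0.758) and Eif4ebp3 (0.748), and Idh1 was most like Fabp1 (liver fatty acid binding protein, 0.868, 0.591 within group and day), Bdh1 (0.831) and Stmp1 (0.822). The closest genes were weaker for Pgls (Rpn2 at 0.728, the NAD kinase Nadk at 0.716 and Qng1 at 0.713) and Rpia (Aqp12a at 0.717, Vwa7 at 0.713 and Ccser1 at 0.672). Vwa7 and Ccser1 were dim, with mean log2 intensities of 4.03 and 4.965, below and just above the 25th percentile of all values (4.954).

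**Figure D4:**
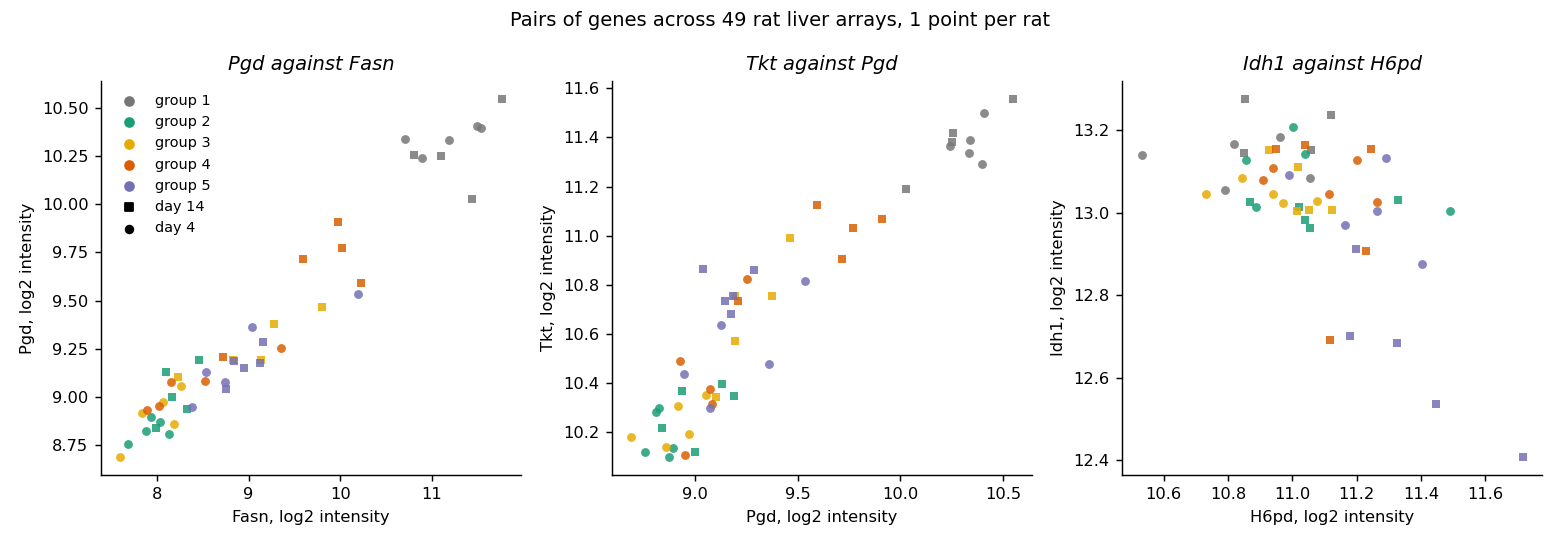
Log2 intensity of Pgd against Fasn, of Tkt against Pgd and of Idh1 against H6pd in 49 rats, 1 point per rat; colours are groups, squares are day 14 and circles are day 4. The unfasted rats of group 1 form the top of the first 2 panels (r = 0.968 and 0.935), with group 4 at day 14 next, and in the last panel the rats of group 5 at day 14 run to high H6pd and low Idh1 (r = -0.621).

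Other genes of these pathways gave a wider view. Of 18 other pentose phosphate genes listed, 13 were measured and 5 were not analysed here. With the fast, 3 of 13 fell and none rose at day 14, and 4 fell and 1 rose at day 4. Rgn (gluconolactonase activity, also known as regucalcin) fell by 0.53 (adjusted p = 0.0190) at day 14 and by 0.42 (adjusted p = 0.0380) at day 4, Pgm1 (phosphoglucomutase) fell by 0.24 and 0.30, Shpk (sedoheptulokinase) fell by 0.28 at day 14, and Rpe (ribulose phosphate epimerase) fell by 0.33 at day 4. Under restriction, none of 13 was called in groups 3 and 4 at day 4, and Shpk rose by 0.42 (adjusted p = 0.0106) in group 5. At day 14 Gpi (glucose phosphate isomerase, at the branch point) rose in groups 3, 4 and 5, by 0.43, 0.67 and 0.70 in log2 (adjusted p = 0.0113, 0.00270 and 0.000144). Prpsap2, a partner of ribose phosphate pyrophosphokinase, fell by 0.38 in group 4 and by 0.47 in group 5. These 2 groups had 1 of 13 higher and 2 of 13 lower each.

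The 11 other NADPH supply genes were all measured. With the fast, 6 fell and none rose at day 14, and 6 fell and 1 rose at day 4, with list medians of -0.29 and -0.33 beside -0.013 and -0.0030 for all genes. Me1 (cytosolic malic enzyme, another NADPH source) fell by 0.69 at day 14 and by 0.95 at day 4, Aldh1l1 (folate enzyme) fell by 0.62 and 0.91, Idh2 (mitochondrial isocitrate dehydrogenase) fell by 0.63 at day 4 and Me3 fell by 0.77 at day 14. Under restriction at day 4, none was called in group 3, 3 rose and 2 fell in group 4, and 4 rose and 1 fell in group 5, where Idh2 rose by 0.64 and Mthfd1 (folate interconversion) by 0.59. At day 14, 1 rose in group 3, 4 rose in group 4, and 5 rose and 2 fell in group 5. In group 5 at day 14, Mthfd1 rose by 1.03 (adjusted p = 1.08e-05) while Me1 fell by 1.22 (adjusted p = 0.00202), in the same rats in which Tkt was higher and Idh1 lower.

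Of the genes that use NADPH or synthesise fat, more fell than rose with the fast. A list of NADPH users and of fat or sterol synthesis enzymes, called users below, had 13 genes measured. Of these, 7 fell and 1 rose at day 14 and 7 fell and 2 rose at day 4. The log2 differences at day 14 and day 4 were -3.16 and -4.15 for Scd (stearoyl-CoA desaturase), -3.07 and -3.23 for Fasn and -2.26 and -3.04 for Sqle (squalene epoxidase). Of 9 genes of lipogenesis and its regulators, 8 fell at day 14 and 9 at day 4. Against group 2 at day 4, users numbered 0, 3 and 2 higher and 0, 0 and 1 lower in groups 3, 4 and 5, and lipogenesis genes 1, 4 and 5 higher with none lower, led by Thrsp (a lipogenic regulator, 3.03 in group 5). At day 14, users numbered 5, 6 and 4 higher and 0, 0 and 2 lower in groups 3, 4 and 5, and lipogenesis genes 4, 6 and 4 higher with none lower. Scd differed by 3.72 (adjusted p = 6.05e-05) in group 4 at day 14, the fasted group with the highest Pgd mean, and Scd was lower in group 5 than in group 4 of that day (log2 difference -2.58, adjusted p = 0.0338).

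A further list of 10 measured genes held Nfe2l2 (the gene of the antioxidant regulator NRF2), Keap1 and targets of NRF2. In mouse, such targets include several pentose phosphate genes. With the fast, 0 of the 10 were higher and 1 lower at day 14, and 1 was higher and 1 lower at day 4. The list medians were -0.086 and -0.085, beside -0.013 and -0.0030 for all genes. Ephx1 (epoxide hydrolase) fell by 0.79 (adjusted p = 0.00111) at day 14 and by 0.55 (adjusted p = 0.0273) at day 4, and Txnrd1 (thioredoxin reductase) rose by 0.21 (adjusted p = 0.0317) at day 4. Against group 2 at day 4, 1 of 10 rose in group 4 and none was called in groups 3 and 5. At day 14, Gclm (glutathione synthesis) and Ephx1 rose in group 3, by 0.95 and 0.43, and in group 4, by 0.82 and 0.52, where the regulator's own gene Nfe2l2 fell by 0.49. In group 5 at day 14, 3 of 10 fell and none rose. They were Nqo1 (quinone reductase, -0.92, adjusted p = 0.0272), the regulator's gene Nfe2l2 (-0.54) and Txnrd1 (-0.28). Of the members, H6pd and Tkt were called higher in that group and Idh1 was called lower. Whether NRF2 had a part in these changes was not tested.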

How the data were processed

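Liver RNA of 49 rats was hybridised to Affymetrix GeneChip rat genome arrays. The authors checked the scans in Affymetrix Expression Console and normalized them by RMA (R 3.0.1, affy 1.38.1), and the table they deposited holds linear whole-number intensities, of which log2 was taken here. RMA equalises the arrays' distributions, so a change shared by most transcripts would not be seen. Rounding to whole numbers leaves coarse steps in dim probe sets.

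Of 31042 probe sets, 20826 carried 1 symbol in the platform annotation, 436 several and 9780 none. Probe sets with several symbols were left out, among them 4 that list Pgd with other genes. The brightest probe set by mean stood for each of 14217 genes (4525 genes had more than 1). RefSeq gene ids matched 20758 probe sets.

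Each comparison was a separate limma fit (limma 3.58.1, R 4.3.3) of the groups named, with Benjamini-Hochberg adjustment over all genes. limma stands in for the study's EBarrays model, which was not run. On data simulated for group 5 against group 2 at day 14 over 14217 genes, 98% of planted log2 changes of 1 and 81% of 0.5 were recovered, with 15 false calls among 194. With the real genes' moderated SDs these shares were 97% and 87%, with 37 false calls among 221. That is a larger share of false calls than the threshold of 0.1 aims at. Changes under 0.5, such as many of those called here, were not planted, so their recovery is not known. The number of arrays per group limits the precision. No 2 arrays held identical values.

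All 7 members are named in every comparison. Of the other lists, up to 3 called genes with the largest change were named per comparison, and the 3 genes most like each member. Fasn and Acly levels and the marker genes Hbb and Alas2 follow the same rules. The members and lists were chosen with earlier results of these data known. Rats are numbered in the order of the deposited samples. Alternatives were a threshold of 0.05, a minimum change of 1.5-fold, 1 fit of all 10 means, a filter on dim probe sets, all probe sets, the mean of a gene's probe sets, a further quantile normalization, array weights, robust empirical Bayes with trend, and leaving out each rat.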

Additional observations from a re-analysis of the deposited data

Results flagged for a closer look

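A rat was set apart where its gap to the nearest other rat of its group, relative to the range of that group, exceeded Dixon's limit. This held in 2 of 70 groups of values, where chance would give about 1 in 20. H6pd in rat 2 of group 2 at day 4 was the highest of its group at a log2 intensity of 11.49, with the nearest rat at 11.04. Rpia in rat 4 of group 5 at day 4 was the lowest of its group at 8.08, with the nearest rat at 8.22.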

How the results depend on the processing

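Over the 175 tests of the 7 genes, 9 alternatives gave 1561 values, of which 1519 kept their side of the threshold and none changed sign after a call. At an adjusted p under 0.05 the calls numbered 4 in place of 9 for the diets against group 2, 4 in place of 7 for day 14 against day 4, and 1 in place of 2 between the restricted diets. With a minimum change of 1.5-fold they numbered 2 for the diets, 4 in place of 8 for the overnight fast, 0 for the days and 0 between the diets. In 1 fit of all 10 means they numbered 5 between the diets, as group 5 against group 4 at day 14 gained Pgd, Taldo1 and Idh1. Leaving out a single rat gave 6 to 10 calls for the diets, 7 to 9 for the fast, 6 to 7 for the days, 0 to 1 for the interaction with day, 5 to 6 for the trend and 1 to 3 between the diets. Pgd in group 4 at day 4 was called with the dim filter (adjusted p = 0.0934), the mean of probe sets (0.0978), array weights (0.0969) and robust empirical Bayes (0.0982), and Rpia for the fast at day 4 after a further quantile normalization (0.0865). No paired analysis was possible because each rat was sampled once. The cause of these shifts was not tested, beyond the smaller number of rats where a rat was left out. Calls of Pgd, Tkt and Taldo1 for the fast on both days, of Pgls for the fast at day 4, of Pgd and Tkt in group 4 at day 14 and of Tkt and Idh1 in group 5 at day 14 were kept without any single rat.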
